A study of Mus musculus with 12 samples.

Results

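Serum response factor (Srf), the coactivators that work with it, the actins it is known to drive and 2 actin-associated proteins were followed in right atria of iNICD mice and their controls. The 10 genes were picked by symbol (Srf, Myocd, Mkl1, Mkl2, Acta1, Actc1, Actb, Actg1, Vcl and Filip1l), each matched 1 row among the 40690 genes of the deposited table, and all 10 were high enough to test. They were selected on their CPM values in iNICD against control, so their fold changes, and whether the fit over all genes called them, are given here as a description and support nothing. The data are RNA sequencing of whole right atria, a bulk tissue, from 6 iNICD and 6 control libraries, each from a different atrial sample. Adult mice of both genotypes, which were littermates aged 2 to 3 months, received doxycycline in their chow for 3 weeks and the tissue was taken with no break afterwards. The genotype labels are iNICD, by its name an inducible Notch intracellular domain (the active part of the Notch receptor), and Control, and the promoter that drives the transgene, the strain and the alleles carried by the controls were left unstated in the labels. Values are CPM, the reads of a gene scaled to a common total of assigned reads per library.

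SRF is a DNA-binding protein of the MADS-box family that recognises the CArG box, a short sequence with an A/T-rich core. On its own it is a weak activator. It works through myocardin (Myocd), which is made in heart and smooth muscle, through the myocardin-related factors MRTF-A (Mkl1) and MRTF-B (Mkl2), which are held back by monomeric actin and released when actin polymerises, or through ternary complex factors such as Elk1. Its targets include the actin genes themselves, vinculin and its own gene, and in the heart it maintains sarcomere genes.

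The CArG boxes near the start sites show which of these genes carry the SRF sequence close to their promoter. RefSeq promoter windows (GRCm38.p6, from 250 bases before to 50 after a start site) were matched by symbol for 8 of the 10 genes (all but Actb and Myocd), in 12 windows, and 6 of the 8 genes held a CArG box in at least 1 window. Of all 27025 genes with a window 1.81% held one, and of all 32851 windows 1.63%. The 10 genes include known SRF targets, so the higher share among them is a description and supports nothing. The motif is its own reverse complement in form, so a search of 1 strand covers both. The Srf promoter held 2 boxes, shown in capitals in the whole window, which lies at chr17:46556113-46556412 on the - strand.
Srf: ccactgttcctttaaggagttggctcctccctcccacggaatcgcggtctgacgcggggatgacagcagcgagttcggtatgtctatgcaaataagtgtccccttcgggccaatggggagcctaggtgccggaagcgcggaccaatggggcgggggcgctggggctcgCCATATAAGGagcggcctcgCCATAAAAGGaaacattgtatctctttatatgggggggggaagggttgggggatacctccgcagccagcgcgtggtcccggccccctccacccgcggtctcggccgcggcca

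The boxes of Acta1, Actc1, Actg1, Vcl and Filip1l follow with 20 bases on each side, the box in capitals, read 5′ to 3′ on the strand of the gene.
Acta1 (chr8:123894819-123894868, - strand): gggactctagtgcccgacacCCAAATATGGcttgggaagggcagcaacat
Actc1 (chr2:114052893-114052942, - strand): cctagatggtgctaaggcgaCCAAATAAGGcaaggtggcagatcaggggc
Actg1 (chr11:120348556-120348605, - strand): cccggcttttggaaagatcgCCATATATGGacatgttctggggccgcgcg
Vcl (chr14:20929151-20929200, + strand): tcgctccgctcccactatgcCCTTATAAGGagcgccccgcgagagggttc
Filip1l (chr16:57549160-57549209, + strand): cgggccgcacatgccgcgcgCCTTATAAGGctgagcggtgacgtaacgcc
The Vcl and Filip1l boxes have the same letters, CCTTATAAGG. Filip1l has 2 windows, and the box is in the downstream one. The windows of Mkl1 and Mkl2 held no CArG box. A box in these windows is a sequence match and not a measured binding site.

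Libraries held 12015650 to 22716190 reads assigned to genes, so 1 read is under 0.1 CPM. Notch1 was at 3064 to 5358 CPM in iNICD and 192 to 293 CPM in control, without overlap. Control 4 stood apart for many of the 10 genes, iNICD 3, iNICD 5 and control 3 were rich in the RNAs Gm42418 and Rn7sk (29003 to 38370 CPM together, against 9316 to 14482 CPM in the others), and Xist, which is made from an inactive X chromosome, was at 100 CPM or more in 3 iNICD and 4 control libraries and lower in the others. Sex is not given in the labels. Markers of heart muscle cells (Tnnt2, Tnni3, Ttn, Ryr2, Myh6, Actn2 and Pln) summed to 126800 to 141340 CPM in iNICD and 138790 to 151280 CPM in control, with 0 of 7 called by limma (3 lower at an unadjusted p under 0.05, 2 lower by edgeR and 3 lower by DESeq2). All 4 atrial markers (Nppa, Myl7, Myl4 and Sln) were present and lower in iNICD. Of 3 ventricular markers Irx4 was under 1 CPM throughout. Myl2 was at 1.69 to 9.98 CPM in iNICD and 1.40 to 50.3 CPM in control, highest in control 3 and next in control 6. Myl3 was at 3.38 to 24.1 CPM in iNICD and 6.38 to 41.9 CPM in control. Neither Myl2 nor Myl3 was called by limma, edgeR or DESeq2. Of other cell types, 3 of 6 macrophage markers were called higher by limma (Adgre1, Fcgr1 and Csf1r), beside 4.87% of all genes tested. The log2 fold change was positive for 5 of the 6, which summed to 330 to 470 CPM in iNICD and 283 to 362 CPM in control. Of 7 fibroblast markers 1, Tcf21, was called higher by limma (adjusted p = 0.048, against 0.081 by edgeR and 0.063 by limma without control 4). The 7 summed to 2687 to 4841 CPM in iNICD and 2360 to 3297 CPM in control. Of 6 endothelial markers 0 was called by limma, edgeR or DESeq2, with 1 lower at an unadjusted p under 0.05. They summed to 763 to 931 CPM in iNICD and 798 to 1025 CPM in control. The part of these cell types in the values below was not tested.

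Across all genes 6.71% of the 14336 tested were called between iNICD and control, 4.87% higher and 1.84% lower (limma, Benjamini-Hochberg adjusted p under 0.05), and 4.59% had no overlap between the groups. Of the 10 genes, 1 was called, Srf, which was lower, and it was the 1 without overlap. By limma 0 of the 10 were called higher, by edgeR 0, and by DESeq2 1, Myocd. At an unadjusted p under 0.05 (limma), 3 of the 10 were higher (Myocd, Mkl2 and Filip1l) and 2 lower (Srf and Actc1). Over all 14336 genes tested, 1900 were higher and 793 lower at that threshold. The median log2 fold change was -0.02 over the 10 genes and 0.05 over all genes tested. Leaving out 1 library gave medians of -0.07 to 0.04 over the 10 genes. These counts, and each call of the 10 genes given below, describe genes picked with this comparison in view.

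Srf (ENSMUSG00000015605, chromosome 17, 46548329 to 46556175, GRCm38, - strand) was at 158, 182, 176, 175, 186 and 152 CPM in iNICD 1 to 6, against 250, 285, 281, 365, 253 and 201 CPM in controls 1 to 6. All 6 iNICD libraries lay below the lowest control, and the iNICD values lay closer together, with a coefficient of variation of 7.86% against 19.9% in control. Control 4, at 365 CPM, adds to the control spread, and the other controls ran from 201 to 285 CPM. The mean was 172 ± 13.5 CPM in iNICD and 273 ± 54.3 CPM in control (SD, n = 6 each), and the log2 fold change was -0.65 (SE 0.11), which is 0.639 times the control level. In these whole-tissue values fewer cells of a type and less RNA per cell cannot be told apart. Srf fell by 0.56 on the log2 scale without control 4, the highest library, and by 0.67 without iNICD 3, iNICD 5 and control 3. The log2 fold change was -0.63 among libraries with high Xist and -0.67 among the 5 with low Xist, where Srf and the 8 called pathway genes described below were no longer called. No annotated exon of another gene overlaps those of Srf, and none of its 50-base stretches occurs in transcripts of another gene. Of 10 tested genes beside Srf on chromosome 17, 5 on each side by start position, 1 was called, Crip3 (-1.13, adjusted p = 0.0018, limma). Crip3 was named after its value was seen, and the log2 fold changes of the 10 ran from -1.13 to 0.25.

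**Figure D1:**
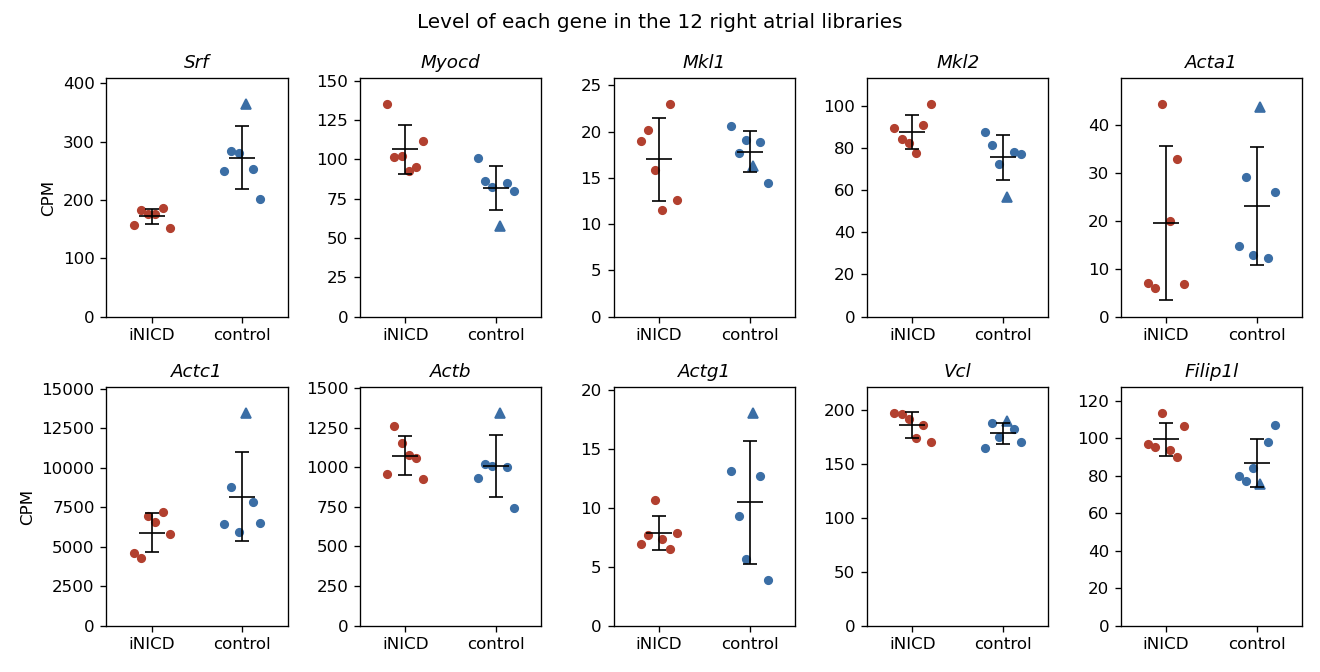
Level of each of the 10 genes in CPM (vertical axes, each from 0) in 6 iNICD libraries (red, left) and 6 control libraries (blue, right). Bars are the mean and SD and the triangle is control 4. Srf is at 152 to 186 CPM in iNICD and 201 to 365 CPM in control without overlap, whereas the groups overlap in every other panel.

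Myocardin, the coactivator restricted to heart and smooth muscle, averaged 106 ± 15.7 CPM in iNICD and 81.9 ± 13.9 CPM in control (SD, n = 6 each). Myocd (ENSMUSG00000020542, chromosome 11, 65176561 to 65269989) was at 135, 101, 102, 92.3, 94.9 and 112 CPM in iNICD 1 to 6, against 101, 86.1, 82.1, 57.8, 85.2 and 79.6 CPM in controls 1 to 6. Control 1 lay among the iNICD values, and 4 of the 6 iNICD libraries were above every control. The log2 fold change was 0.38 (SE 0.12), or 0.28 without control 4, and Myocd was not called by limma. It was called by DESeq2, with the covariate of log2 Xist, and without control 1, where the log2 fold change was 0.44. Smooth muscle markers (Acta2, Tagln, Myh11, Cnn1, Smtn and Lmod1) summed to 569 to 895 CPM in iNICD and 601 to 1100 CPM in control, and their part in the Myocd level was not tested.

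Of the myocardin-related factors, Mkl2 (ENSMUSG00000009569, chromosome 16, 13256481 to 13417529) was at 77.4 to 101 CPM in iNICD (median 86.8) and 56.6 to 87.5 CPM in control (median 77.4), with 3 iNICD libraries above every control. Its log2 fold change was 0.22 (SE 0.10), and 0.14 without control 4, the lowest library. Mkl1 was the lowest of the 3 coactivators (ENSMUSG00000042292, chromosome 15, 81012281 to 81190757), at 11.5 to 23.0 CPM in iNICD (median 17.4) and 14.4 to 20.6 CPM in control (median 18.3). The iNICD range of Mkl1 enclosed that of control, with a log2 fold change of -0.10 (SE 0.15), and 0.0023 without iNICD 4. Scaled by exon length, the mean level in iNICD was 16.5 CPM per kb for Myocd, 9.72 for Mkl2 and 2.78 for Mkl1, and in control 12.8, 8.38 and 2.91 CPM per kb in the same order. The order Myocd, Mkl2, Mkl1 was thus the same in both groups by mean.

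The coactivators were also set against Srf itself. The length-scaled level of Myocd, Mkl1 and Mkl2 together was 0.410 to 0.624 times that of Srf in iNICD libraries and 0.142 to 0.336 times in control libraries. For Myocd alone the proportion was 0.230 to 0.386 in iNICD and 0.0713 to 0.181 in control. Both proportions separated the groups without overlap, they rest on the same contrast as the choice of genes, and no test was made.

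**Figure D2:**
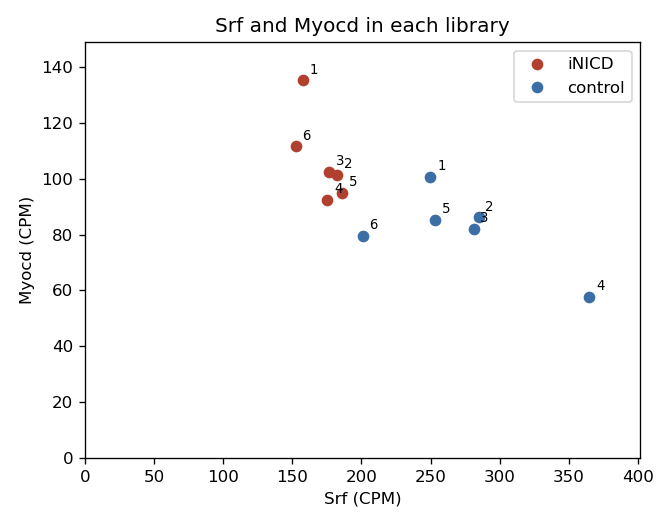
Srf (horizontal axis, CPM) against Myocd (vertical axis, CPM), 1 point per library with its replicate number, iNICD red and control blue. The iNICD libraries sit at 152 to 186 CPM of Srf and 92.3 to 135 CPM of Myocd, and control 4 sits alone at 365 CPM of Srf and 57.8 CPM of Myocd.

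Cardiac actin (Actc1), the main thin-filament actin of the adult heart, was the highest of the 10 genes. Actc1 (ENSMUSG00000068614, chromosome 2, 114047282 to 114053548) was at 4582, 4310, 6927, 6539, 7189 and 5805 CPM in iNICD 1 to 6, against 6445, 8803, 5955, 13483, 7818 and 6502 CPM in controls 1 to 6. The groups overlapped, with 3 iNICD libraries below every control and control 4 far above the rest. The log2 fold change was -0.44 (SE 0.19), not called, and -0.28 without control 4.

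Skeletal actin (Acta1), the other sarcomeric actin, which is low in the adult mouse heart and known to return under load, varied most. Acta1 (ENSMUSG00000031972, chromosome 8, 123891769 to 123894751) was at 7.07, 5.96, 44.5, 19.98, 33.0 and 6.87 CPM in iNICD 1 to 6, against 14.7, 29.3, 12.8, 43.9, 12.3 and 26.0 CPM in controls 1 to 6. The coefficient of variation was 82.6% in iNICD and 53.6% in control. The log2 fold change was -0.51 (SE 0.56), and -1.33 without iNICD 3, iNICD 5 and control 3, of which iNICD 3 and iNICD 5 were the highest of their group. It was -0.29 without control 4 and ran from -0.82 to -0.26 over the 12 fits that left out 1 library, without iNICD 3 and without iNICD 2. None of these fits called it. Of 7 skeletal muscle markers, Myh1 and Myh4 were under 1 CPM in all libraries, and the sum of the 7, 404 to 714 CPM in iNICD and 782 to 1095 CPM in control, was almost all Ckm, which the heart also makes. Of the others Tnnt3 was at 2.42 to 10.95 CPM in iNICD and 1.49 to 6.88 CPM in control. Its log2 fold change was 0.91 (adjusted p = 0.22, limma). Tnni2, too low to test, was at 0.957 to 1.32 CPM in iNICD and 0.0880 to 0.830 CPM in control. Actn3 was at 4.15 to 10.2 CPM in iNICD and 5.29 to 9.55 CPM in control. The log2 fold change of Actn3 was -0.08 (adjusted p = 0.90, limma). Myh2, also too low to test, averaged 0.337 CPM in iNICD and 0.396 CPM in control. The part of these markers in the Acta1 level was not tested.

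The cytoplasmic actins, which build the cytoskeleton of every cell type, were Actb and Actg1. Actb (ENSMUSG00000029580, chromosome 5, 142903115 to 142906754) was at 927 to 1263 CPM in iNICD (median 1069) and 742 to 1343 CPM in control (median 1004), with a log2 fold change of 0.10 (SE 0.12), 0.19 without control 4, 0.02 without control 6 and 0.05 without iNICD 2. The iNICD values all fell within the control range. Actg1 (ENSMUSG00000062825, chromosome 11, 120345690 to 120348542) was at 6.52 to 10.6 CPM in iNICD (median 7.50) and 3.85 to 18.0 CPM in control (median 10.99), with a log2 fold change of -0.25 (SE 0.30), -0.06 without control 4 and -0.48 without control 6. It was -0.15 without control 1, -0.16 without control 5 and -0.38 without control 3. The iNICD values again fell within the control range, and the control range was wide. The Actg1 level is uncertain, since 37.4% of its 50-base stretches occur in transcripts of 23 other annotated genes, led by Gm12715 at 33.2%. That share was 9.12% for Actb and 2.02% for Acta1, and 0 of the Actc1 stretches were shared. How reads with several alignments were counted is not given, and Gm12715 averaged 0.101 CPM.

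Scaled by exon length, Actc1 made up 89.4% ± 2.48 of the 4 actins in iNICD and 92.5% ± 1.23 in control (SD, n = 6 each). Actb made up 10.2% ± 2.57 in iNICD and 7.17% ± 1.29 in control. The ranges overlapped, at 84.8% to 91.4% in iNICD and 90.5% to 94.0% in control for Actc1. Acta1 was 0.288% ± 0.203 in iNICD and 0.270% ± 0.0905 in control, and Actg1 as counted was under 0.12% in each library. The smooth muscle actin Acta2, which is not among the 4, was at 127 to 450 CPM in iNICD and 156 to 544 CPM in control.

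**Figure D3:**
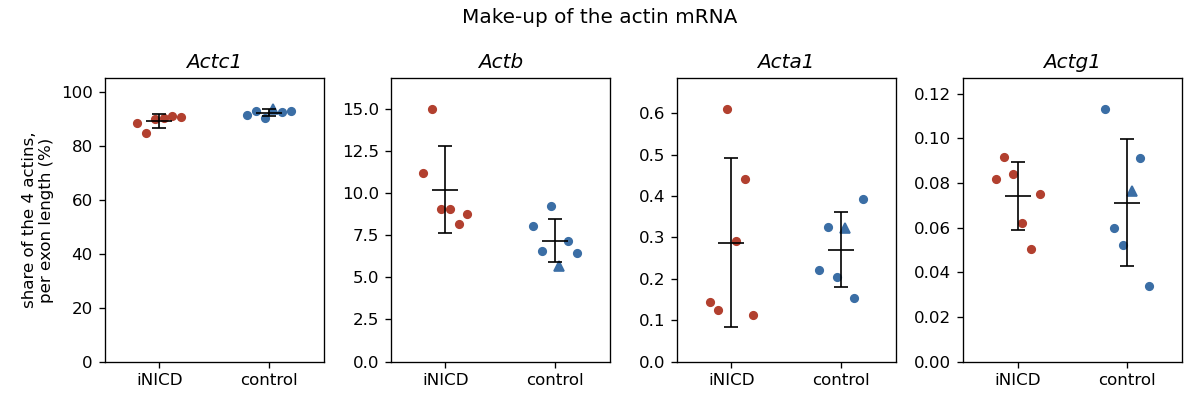
Share of each actin in the summed length-scaled level of Actc1, Actb, Acta1 and Actg1 (vertical axes, percent, each from 0), for 6 iNICD libraries (red, left) and 6 control libraries (blue, right), with mean and SD and control 4 as a triangle. Actc1 averages 89.4% in iNICD and 92.5% in control, and the groups overlap in each panel.

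Vinculin (Vcl) links actin filaments to integrin and cadherin junctions, and Filip1l is named for its likeness to a filamin A interacting protein. Vcl (ENSMUSG00000021823, chromosome 14, 20929398 to 21033676) was the steadiest of the 10 genes by coefficient of variation, at 170 to 197 CPM in iNICD (median 189) and 165 to 190 CPM in control (median 179), with coefficients of variation of 6.27% and 5.56% in the same order. Its log2 fold change was 0.06 (SE 0.07). Of its 8191 exon bases 2090 lie opposite exons of Ap3m1, and the strand setting of the counting is not given. Filip1l (ENSMUSG00000043336, chromosome 16, 57353093 to 57573126) was at 90.0 to 113 CPM in iNICD (median 96.0) and 75.3 to 107 CPM in control (median 81.9). All 6 iNICD libraries were above the control median, 1 was above every control, and the log2 fold change was 0.20 (SE 0.09), not called.

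**Figure D4:**
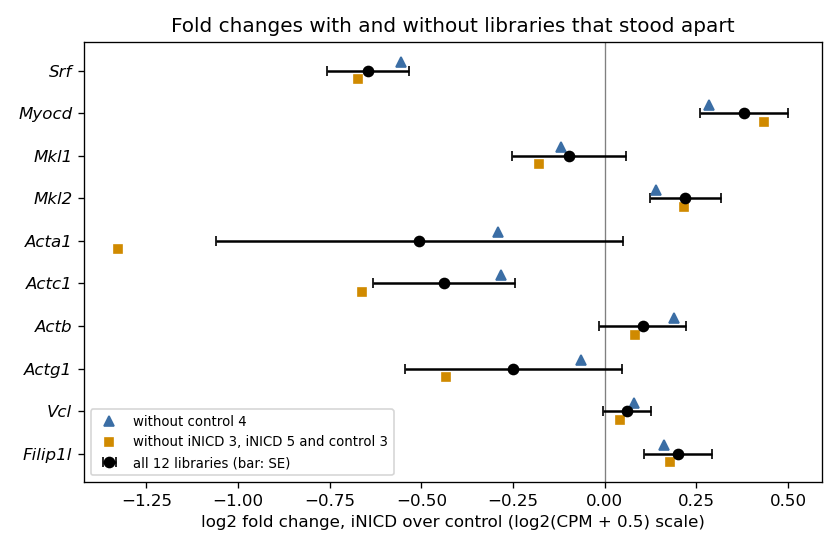
Log2 fold change of each gene, iNICD over control (horizontal axis, log2(CPM + 0.5) scale), with all 12 libraries (black, bar 1 SE), without control 4 (blue triangles) and without iNICD 3, iNICD 5 and control 3 (orange squares). Srf lies between -0.67 and -0.56 in the 3 fits, and Acta1 lies between -1.33 and -0.29.

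Variation among libraries of the same group was not used in picking the genes, and Srf varied with Actb. With each group mean removed, Pearson's r between Srf and Actb over the 12 libraries was 0.94 (within-group permutation p = 0.00066, adjusted over 10 relations 0.0066) and Spearman's coefficient 0.83 (permutation p = 0.0031, adjusted 0.031). Without control 4 and control 6, the libraries farthest from the median of Srf, r was 0.77. Of the other 9 relations none passed after adjustment (permutation p adjusted 0.058 or more for r, 0.071 or more for Spearman's coefficient), and r was -0.81 with Scai, -0.73 with Filip1l, -0.64 with Myocd and 0.65 with Actc1. Several of these relations rest in large part on the 2 libraries, since without them r was -0.47 with Scai, -0.42 with Filip1l and 0.26 with Actc1. The r with Myocd was -0.69 without the 2 libraries. For Mkl2 it was -0.68, and -0.56 without them. With Actg1 r was 0.62, and -0.39 without them. Libraries share their depth scaling across genes, which enters each of these values.

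The genes most like Srf within groups, among 11091 genes averaging 5 CPM or more, and leaving out the 10 genes themselves, of which Actb had r = 0.94, were the kinase gene Sgk1 (r = 0.95), Arhgdia (0.94), the palmitoyltransferase gene Zdhhc5 (0.94), the focal adhesion scaffold gene Nedd9 (0.94) and the cell cycle inhibitor gene Cdkn1a (0.93), over 12 libraries. Without control 4 and control 6 these r were 0.86, 0.77, 0.74, 0.76 and 0.68 in the same order. None of the 5 was called between iNICD and control (limma adjusted p 0.36 or more), with log2 fold changes of -0.25 to -0.05.

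The surrounding genes of the pathway were read from 7 lists of SRF partners, SRF targets and actin regulators, 103 genes tested in all. Of these, 3 were called higher and 5 lower, 7.77% against 6.71% of all genes tested, and the median log2 fold change was -0.06, or -0.02 without control 4 and -0.09 without iNICD 5. Among 12 partner factors Scai, a known suppressor of MRTF activity, was the 1 gene called by limma (8.33% beside 6.71% of all genes) and rose. EdgeR called 1 of the 12 higher and 1 lower, and DESeq2 2 higher and 2 lower. Scai was at 29.9, 24.5, 28.2, 24.7, 26.6 and 28.3 CPM in iNICD 1 to 6, against 17.8, 18.1, 12.8, 13.2, 16.6 and 24.0 CPM in controls 1 to 6. The groups did not overlap, with control 6 just under the lowest iNICD library, and the log2 fold change was 0.67 (SE 0.13, limma adjusted p = 0.0048). Scai was called in all 12 fits that each left out 1 library, but not without iNICD 3, iNICD 5 and control 3 together (0.59, adjusted p = 0.056). Abra, a muscle activator of MRTF signalling, was at 27.8 to 42.0 CPM in iNICD and 40.7 to 113 CPM in control, with a log2 fold change of -0.59 (adjusted p = 0.16, limma), and -0.39 without control 4, the highest library. DESeq2 called it. The ternary complex factors were near their control level, at log2 fold changes of 0.03 for Elk1, -0.01 for Elk3 and 0.01 for Elk4 (SE 0.09 to 0.11), and the sign of each changed with the scaling or the libraries used.

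Serum-responsive targets, the genes that the ternary complex arm switches on within minutes, had 1 called gene of 10 tested (10% beside 6.71% of all genes), the nuclear receptor gene Nr4a1, which fell. The log2 fold change was negative for 7 of the 10, at a median of -0.42, or -0.11 without control 4. Nr4a1 was at 8.94 to 28.9 CPM in iNICD (median 21.9) and 29.0 to 76.2 CPM in control (median 38.0), without overlap, with a log2 fold change of -1.14 (SE 0.29, limma adjusted p = 0.036). The call was lost without iNICD 3, iNICD 4, iNICD 6, control 1, control 3, control 4, control 5 or control 6, and the log2 fold change was between -1.25 and -0.93 over all 12 fits that left out 1 library. Fos (-1.15, SE 0.56, adjusted p = 0.30, limma) and Egr1 (-0.71, SE 0.30, adjusted p = 0.22) were not called. Fos was at 4.37 to 20.4 CPM in iNICD and 9.01 to 66.1 CPM in control. Egr1 was called by DESeq2, and by limma without control 6.

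Cytoskeletal targets of the MRTF arm had 0 of 18 genes called by limma, beside 6.71% of all genes. At an unadjusted p under 0.05 (limma), 1 was higher and 4 lower, beside 1900 higher and 793 lower of all 14336 genes tested. EdgeR called 0 of the 18, and DESeq2 called 2 lower. Their median log2 fold change was -0.20, with 13 of 18 below 0, and -0.06 with 10 of 18 below 0 without control 4. Talin (Tln1), which joins vinculin to integrins, was at 646 to 787 CPM in iNICD and 606 to 851 CPM in control, with a log2 fold change near 0 whose sign changed with the scaling. Ankrd1, a strain-responsive nuclear and sarcomeric protein, had a log2 fold change of 0.24 (adjusted p = 0.61, limma), or 0.44 without control 4, where it was called (adjusted p = 0.035).

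Among 12 smooth muscle targets Tpm2, which encodes beta-tropomyosin, was the 1 called gene (8.33% beside 6.71% of all genes) and fell. Log2 fold changes were below 0 for 8 of the 12, at a median of -0.15, or -0.08 without iNICD 6. Tpm2 was at 121, 135, 140, 137, 159 and 140 CPM in iNICD 1 to 6, against 224, 252, 186, 284, 199 and 180 CPM in controls 1 to 6. The groups did not overlap, and the log2 fold change was -0.65 (SE 0.11, limma adjusted p = 0.0014). The smooth muscle genes Acta2 (0.18), Tagln (0.25) and Myh11 (-0.15) were not called (adjusted p 0.56 or more).

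Among 15 heart muscle targets 3 were called by limma, all lower (20% beside 6.71% of all genes called and 1.84% called lower). The unadjusted p (limma) was under 0.05 for 7, all lower, beside 793 lower of all 14336 genes tested. EdgeR called 5 of the 15 lower, beside 377 of all genes, and DESeq2 called 6 lower, beside 587. Log2 fold changes were below 0 for 13, at a median of -0.27, or -0.17 without control 6 and -0.18 without iNICD 2. The genes called by limma were Nppa, the atrial natriuretic peptide gene (-1.53, adjusted p = 8.9e-06, limma), the muscle creatine kinase gene Ckm and the Z-disc gene Ldb3. Ckm was at 393 to 691 CPM in iNICD (median 504) and 773 to 1080 CPM in control (median 899), with a log2 fold change of -0.84 (SE 0.13, limma adjusted p = 0.0010). Ldb3 was at 781 to 984 CPM in iNICD (median 853) and 1012 to 1252 CPM in control (median 1169), with a log2 fold change of -0.40 (SE 0.08, adjusted p = 0.0055, limma). Neither gene overlapped between groups. Some genes of this list were known to be lower in these data when the list was drawn, and the summed heart muscle cell markers are given above; their part in these values was not tested.

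Among genes of actin assembly Tmod1, which caps the pointed ends of sarcomeric actin filaments, rose to 286 to 328 CPM in iNICD, against 195 to 262 CPM in control, with a log2 fold change of 0.38 (SE 0.08, limma adjusted p = 0.0084). Rhoa (0.04), Rock1 (0.26) and Rock2 (0.10), were not called (adjusted p 0.24 or more, limma; Rock1 was called without control 6), and neither was cofilin 2, Cfl2 (0.02), which severs muscle actin filaments. The signs of Rhoa and Cfl2 turned under median-of-ratios scaling, among other settings. Among 14 vinculin partners 1 was called by limma (7.14% beside 6.71% of all genes). At an unadjusted p under 0.05 (limma), 1 was higher and 3 lower, beside 1900 higher and 793 lower of all 14336 genes tested. EdgeR called 0 higher and 1 lower, and DESeq2 1 higher and 2 lower. Log2 fold changes were below 0 for 7 of the 14, at a median of -0.03, or 0.03 without control 4. The gene called by limma was Ctnna3, the alpha-catenin of heart cell junctions, which rose (0.35, SE 0.10, limma adjusted p = 0.039). It was at 222 to 282 CPM in iNICD and 152 to 221 CPM in control, and the call was lost without iNICD 1, iNICD 2, iNICD 3, iNICD 4, iNICD 6, control 2, control 3 or control 5.

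**Figure D5:**
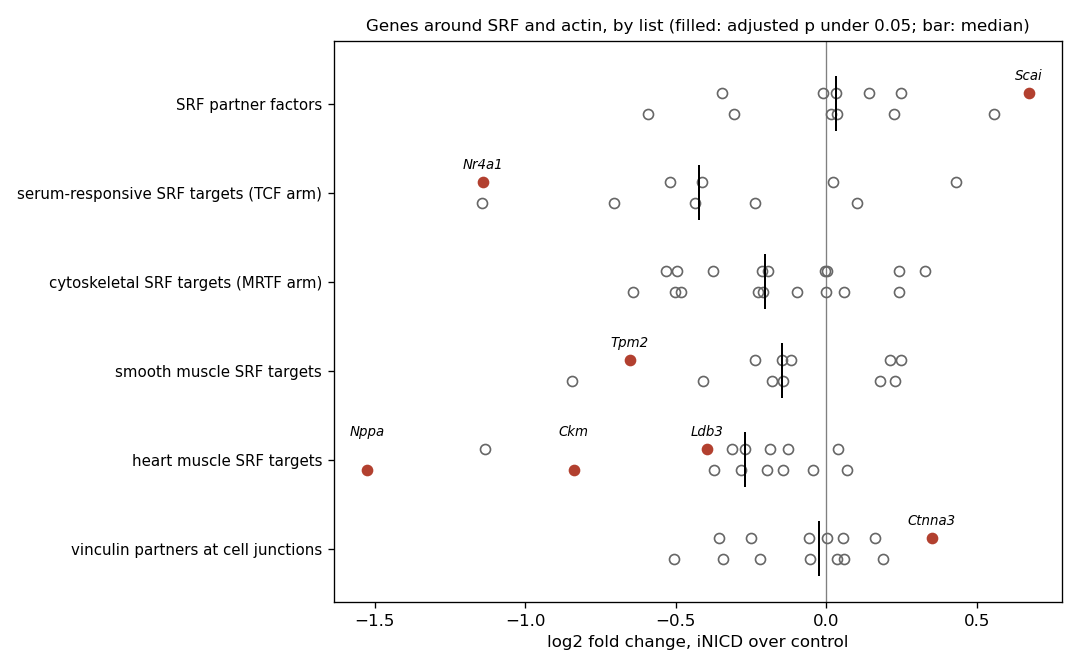
Log2 fold change, iNICD over control (horizontal axis), of every tested gene in 6 lists (rows), with genes past an adjusted p of 0.05 filled red and named and the list median as a bar. Nppa, Ckm and Ldb3 lie below 0 among heart muscle targets, and Scai lies highest among partner factors at 0.67.

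Genes were also grouped by the box alone. Of the tested genes with a promoter window, 163 held a box and 9 of them were called (5 higher, 4 lower), 5.52% against 6.61% of all 10555 tested genes with a window. The median log2 fold change was 0.02 for the 163 and 0.04 for the 10555. Srf was 1 of the 4 lower, with Myl7 (-1.17), Ldb3 (-0.40) and Itgb6 (-0.76), and the 5 higher were Mpeg1 (1.06), Tanc1 (0.49), Lama2 (0.48), Rap1gap2 (0.54) and Myom1 (0.24), named after their values were seen. The window covers 300 bases, and boxes elsewhere in a gene were not searched.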

How the data were processed

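RNA from right atria of 6 iNICD and 6 control samples was sequenced. The CPM were deposited by the authors, 1 column per library. STAR 2.4.0b and featureCounts are named per the submitters' processing notes, while nothing read here states the build, annotation, strand setting or handling of multiple alignments. Of 41264 rows, 574 repeated an identifier with equal values and were used once. Dividing by the CPM of 1 read gave whole reads for 100% of values (tolerance 0.001), so reads were recovered, and libraries of a group differed beyond counting noise (chi-square per degree of freedom 9.22 to 88.9). Labels name no animals, so p-values measure the spread between these samples.

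The test was limma 3.58.1 (trend, robust) on log2(CPM + 0.5) for genes that reached 1 CPM in 6 or more of the 12 libraries, adjusted by Benjamini-Hochberg over all 14336 genes, threshold 0.05. Fold changes are on that scale, which understates changes of low genes. The limma fit was tested on simulated counts, drawn for each gene with the spread typical of its level and with no library set apart. Genes with a wider spread, and libraries that stand apart, are not covered by that setting. The fit recovered 91% of 2-fold and 63% of 1.5-fold changes in the simulation. Of its calls there 6.1% were false. The other fits were not tested in this way. Members and lists were chosen with earlier results of these data known, and the separate count of 1 list is not reported here. Named genes are the 10, up to 4 called genes per list, taken by adjusted p, and 16 further genes whatever their values; other genes are said to be chosen on their values. Correlations used 100000 permutations within groups, which were added to a design that had foreseen r alone. Alternatives were pseudocounts, filters, scalings, weights, covariates, a replicate block, left-out libraries, edgeR 4.0.16 and DESeq2 1.42.0. Positions, exon lengths and transcripts came from GENCODE M21 (GRCm38), promoters from RefSeq.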

Additional observations from a re-analysis of the deposited data

Results flagged for a closer look

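Of 20 groups of 6 libraries (10 genes in iNICD and in control), 1 held a library far from the others by Dixon's criterion, where chance gives about 1 in 20. Actg1 was at 10.6 CPM in iNICD 3, against 6.52 to 7.86 CPM in the other iNICD libraries, and the gap to the nearest library was 0.671 of the group's range, above the critical value for 6 samples.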

How the results depend on the processing

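Median-of-ratios scaling gave 616 for all genes called higher and 384 for all genes called lower, and quantile normalization 602 and 407, against 698 and 264. Leaving out 1 library gave 458 to 782 and 186 to 432, with 0 to 1 members called higher and 1 to 1 members called lower, and 2 to 9 pathway genes called higher and 4 to 8 pathway genes called lower. All genes called lower were 552 with array weights and 587 by DESeq2, and edgeR on the recovered reads gave 626 for all genes called higher and 377 for all genes called lower. All genes called higher and lower were 378 and 145 without control 3, iNICD 3 and iNICD 5, 314 and 115 at a threshold of 0.01, and 36 and 1 with low Xist alone. Of the 10 genes 1, Myocd, was called higher with the replicate block, with the Xist covariate and by DESeq2, and 0 were called lower with low Xist alone, which holds 5 samples; the 10 were selected on this contrast, so these counts are no support. Pathway genes called lower were 9 with median-of-ratios scaling, the Xist covariate and edgeR, 10 with array weights, 15 by DESeq2, 8 with high Xist alone and 0 with low Xist alone. Pathway genes called higher were 8 with array weights, 6 with the replicate block, the Xist covariate and high Xist alone, 5 by DESeq2 and 0 with low Xist alone. Same-numbered libraries did not deviate together in each pair (r -0.00561 to 0.325), and 3 of 6 iNICD libraries correlated best with the control of their number, a hint from the data that the labels do not explain, so the numbers were not taken as pairs; with the replicate block all genes called higher were 794 and all genes called lower 297. Signs turned for some uncalled genes. With low Xist alone the log2 fold change was -0.0265 for Vcl, 0.0233 for Myh11, 0.0576 for Elk3, -0.0663 for Elk4, -0.103 for Rhoa, -0.165 for Rock2, -0.312 for Cfl2, -0.0602 for Tln1 and -0.0564 for Ankrd1. Without control 3, iNICD 3 and iNICD 5 the log2 fold change was -0.0115 for Tagln, 0.0835 for Elk3, -0.0162 for Rhoa, -0.01 for Rock2, -0.166 for Cfl2 and -0.114 for Tln1. With median-of-ratios scaling the log2 fold change was -0.0214 for Elk1, -0.0391 for Elk4, -0.0131 for Rhoa, -0.0309 for Cfl2 and -0.0523 for Tln1. With quantile normalization the log2 fold change was -0.0228 for Elk1, -0.0263 for Elk4, -0.0075 for Rhoa, -0.0131 for Cfl2 and -0.0121 for Tln1. By edgeR the log2 fold change was -0.0226 for Elk1, -0.0363 for Elk4, -0.0231 for Rhoa, -0.0688 for Cfl2 and -0.0596 for Tln1. By DESeq2 the log2 fold change was -0.0259 for Elk1, -0.0376 for Elk4, -0.0245 for Rhoa, -0.0703 for Cfl2 and -0.061 for Tln1. With the Xist covariate the log2 fold change was 0.0212 for Elk3, -0.0167 for Cfl2 and -0.0005 for Tln1. With high Xist alone the log2 fold change was 0.0032 for Elk3. With the covariate of Gm42418 and Rn7sk the log2 fold change was -0.023 for Tln1. With array weights the log2 fold change was -0.0145 for Elk1. Over fits without 1 library the range was -0.191 to 0.0023 for Mkl1, -0.0317 to 0.0707 for Elk1, -0.0845 to 0.0392 for Elk3, -0.0402 to 0.0754 for Elk4, -0.0128 to 0.0787 for Rhoa, -0.111 to 0.125 for Cfl2 and -0.0361 to 0.0619 for Tln1. Beyond left-out single libraries and low Xist alone, calls of Ctnna3 and Nr4a1 were lost with no filter on low values (adjusted p = 0.051 and 0.060, limma), without control 3, iNICD 3 and iNICD 5 (0.12 and 0.075) and with high Xist alone (0.067 and 0.26), and that of Ctnna3 also by edgeR (0.0504) and with median-of-ratios scaling (0.0501). The difference in actin share was -4.46 percentage points for Actc1 and 4.45 for Actb with no length scaling, -2.24 and 2.24 with quantile normalization, and -4.13 and 4.24 without control 3, iNICD 3 and iNICD 5, where that of Acta1 was -0.115 against 0.0176 with all libraries, and that of Actg1 was -0.006 with quantile normalization against 0.003; fits without 1 library gave -3.44 to -2.11 percentage points for Actc1 and 2.06 to 3.44 for Actb. The Xist split at 100 CPM was chosen after seeing the data, and the causes were not tested.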
